A study of Mus musculus with 9 samples.

Results

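Expression of 9 genes of muscle formation was followed in quadriceps muscle of mice that lack acid alpha-glucosidase (Gaa), the lysosomal enzyme whose loss causes Pompe disease. They are the transcription factors Myod1, Myog, Myf6, Mef2c and Runx1, the inhibitor Mdfi, the satellite cell genes Pax7 and Cdh15, and the fusion gene Mymk. The genes were chosen by symbol, and all 9 were present among the 13116 genes of the table. All 9 also passed the filter on low values that left 13089 genes for testing, Mdfi and Mymk mainly through KO_PBS, where they were highest. The muscle came from 9 male mice aged 18 months, with 1 library per sample of polyadenylated RNA. All had received a tail vein injection at 9 months of age, 9 months before sampling. Wild-type mice given PBS (WT_PBS), GAA KO mice given PBS (KO_PBS) and GAA KO mice injected with AAV8-sp7-delta8-hGAAco, a vector for a secreted enzyme (KO_secGAA), numbered 3 each. The sources used here give neither strain, knockout allele, promoter nor vector dose, and no untreated or empty-vector group was analysed, so the vector and the enzyme it encodes cannot be told apart.

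Skeletal muscle is repaired by satellite cells, stem cells that lie against the fibres and are marked by the transcription factor Pax7. Activated satellite cells express the basic helix-loop-helix factors Myod1 and then Myog, which bind DNA at E-boxes together with E proteins and with MEF2 factors. Mature fibres keep some of these factors themselves, and Myog and Runx1 are known to be induced in fibres that lose their nerve supply. In bulk tissue, fewer cells of a type and less RNA per cell cannot be told apart, so none of the levels below counts cells.

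RefSeq promoter windows of 3 genes are shown because these had the clearest differences between groups among the members with a window. Each holds the 250 bases before the annotated start, in the GRCm38.p6 build, read 5′ to 3′ on the gene's strand. Myog is at chr1:134289754-134290003 (plus strand), Mdfi at chr17:47834692-47834941 and Runx1 at chr16:92826075-92826324 (both minus strand, each the first of 2 windows). Capitals mark matches to the E-box CANNTG, to the MEF3 motif TCAGGTTTC and to the MEF2 motif.
Myog: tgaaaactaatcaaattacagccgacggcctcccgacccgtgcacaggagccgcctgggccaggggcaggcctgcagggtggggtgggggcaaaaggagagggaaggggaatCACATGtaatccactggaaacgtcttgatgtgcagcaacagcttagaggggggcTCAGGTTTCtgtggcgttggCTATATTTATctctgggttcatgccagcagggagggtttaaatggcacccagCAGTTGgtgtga
Mdfi: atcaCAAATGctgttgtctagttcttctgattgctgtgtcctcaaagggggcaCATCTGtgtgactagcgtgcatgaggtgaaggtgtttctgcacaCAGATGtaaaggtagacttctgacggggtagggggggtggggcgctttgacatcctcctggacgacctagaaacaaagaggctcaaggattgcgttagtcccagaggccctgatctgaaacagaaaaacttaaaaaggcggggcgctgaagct
Runx1: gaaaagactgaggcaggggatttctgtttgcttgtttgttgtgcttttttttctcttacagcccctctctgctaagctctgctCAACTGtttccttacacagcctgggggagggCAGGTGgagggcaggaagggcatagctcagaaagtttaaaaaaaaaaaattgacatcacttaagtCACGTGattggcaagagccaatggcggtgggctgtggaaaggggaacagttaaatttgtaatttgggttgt
The Myog window held 2 E-boxes, CACATG at -138 to -133 and CAGTTG at -12 to -7 from the start, with the MEF3 match at -84 to -76 and the MEF2 match at -64 to -55. Mdfi had 3 E-boxes, nearest to the start CAGATG at -153 to -148, and Runx1 had 3, nearest CACGTG at -71 to -66. An E-box was present in 66.2% of all 32851 windows of this length, so its presence separates these genes from few others. MEF3 was present in 0.387% and the MEF2 motif in 7.03%, both strands counted. The MEF2 form used here allows any last base and was chosen after a stricter form, present in 2.92% of windows, had matched no member. Windows were also present for Mef2c (3), Pax7 (1) and Cdh15 (1) and for a second start of Mdfi and of Runx1. The first window of Mef2c held 2 E-boxes and 1 MEF2 match, GTAATTTTAA at -146 to -137, and its window 3 held 1 E-box. The window of Cdh15 held 3 E-boxes and 1 match to the RUNX motif TGTGGT, read as ACCACA, which 14% of windows hold. CAGCTG, the E-box form found in 13% of windows, was in none of the members' windows. A match describes letters and says nothing of binding.

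Libraries held 9299156 to 15957106 reads in the genes of the table, so 1 read stood for 0.06524 to 0.09216 normalized counts, the unit of all levels below. Gaa itself, the mouse gene, lay at 128.6 to 296 in WT_PBS, 14.02 to 17.78 in KO_PBS and 15.07 to 16.61 in KO_secGAA. The transcript of the vector was not measured here, so these levels do not tell how much enzyme it supplied. The 12 fibre markers summed to 174414 to 208182 in WT_PBS, 129394 to 148499 in KO_PBS and 156896 to 174253 in KO_secGAA. Group values are means with SD over 3 mice, numbered in accession order. Log2 fold changes were made on log2(value + 0.5) with limma, and a gene is said to have risen or fallen where its Benjamini-Hochberg adjusted p over all genes tested was under 0.05. The labels do not say how the mice of a group were raised or handled, so p-values measure only the spread between these samples.

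KO_PBS against WT_PBS asks what loss of Gaa changed in muscle, and there 5 of the 9 genes rose and none fell. Runx1, Mdfi, Mymk, Myog and Cdh15 rose, while Myod1, Myf6, Pax7 and Mef2c did not pass. Mdfi and Mymk passed the filter mainly through KO_PBS, so counts and medians that hold them are not independent of it. Among all genes tested, 10.9% rose and 11% fell. The groups did not overlap for those same 5 members, against 39.7% of all genes. The median log2 fold change over the 9 members was 0.70, against 0.01 over all genes. In KO_secGAA against KO_PBS, which asks what the vector changed, Mdfi and Cdh15 fell and no member rose, where 2.31% of all genes fell and 1.37% rose. Groups of that comparison did not overlap for 4 members, against 24% of all genes, and the members' median was -0.49. In KO_secGAA against WT_PBS, Runx1 alone rose and no member fell, where 1.83% of all genes rose and 1.89% fell. There, 4 members did not overlap, against 26.9% of all genes, and the median was 0.66. The comparisons share libraries, so their values are given side by side and not as separate evidence.

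**Figure D1:**
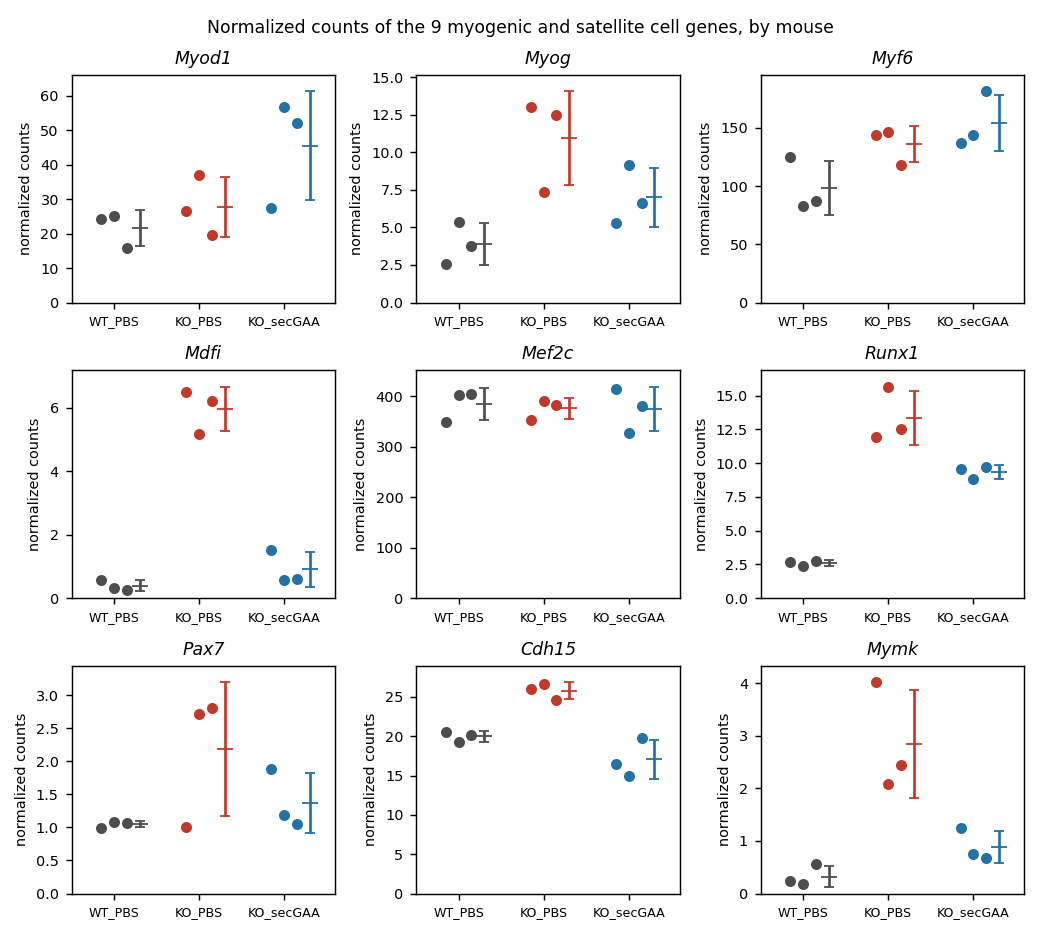
Normalized counts (y axis, linear from 0) of each of the 9 genes in the 3 groups (x axis). Points are mice and the bar beside them is the mean with its SD (n = 3). Mdfi and Mymk stood far above WT_PBS in all 3 KO_PBS mice and nearer to it in KO_secGAA, Runx1 stayed above WT_PBS in both knockout groups, and Mef2c lay at 327.8 to 414.6 throughout.

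Among the helix-loop-helix activators, Myog (chromosome 1, 134289989 to 134292548, GRCm38), which drives the terminal differentiation of myoblasts, rose. It was at 2.571, 5.375 and 3.738 in mice 1 to 3 of WT_PBS, at 13.01, 7.368 and 12.46 in those of KO_PBS and at 5.299, 9.135 and 6.594 in those of KO_secGAA. Every KO_PBS mouse was above every WT_PBS mouse, whereas the treated mice overlapped both groups. The means were 3.895 ± 1.41, 10.95 ± 3.11 and 7.009 ± 1.95 (SD, n = 3). Its log2 fold change in KO_PBS was 1.39 (SE 0.29, limma adjusted p = 0.0086). The treated group differed from KO_PBS by -0.60 (95% CI -1.25 to 0.06, adjusted p = 0.305) and from WT_PBS by 0.79 (0.14 to 1.45, adjusted p = 0.155), so it was placed between them without being separated from either.

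Myod1 (chromosome 7, 46376474 to 46379099), which commits cells to the muscle lineage, was at 24.3, 24.98 and 15.73 in mice 1 to 3 of WT_PBS, at 26.65, 37 and 19.44 in those of KO_PBS and at 27.51, 56.78 and 52.14 in those of KO_secGAA. WT_PBS and KO_PBS overlapped, and the highest values belonged to a pair of treated mice. The means were 21.67 ± 5.15, 27.7 ± 8.82 and 45.47 ± 15.7. KO_PBS differed from WT_PBS by 0.33 (95% CI -0.36 to 1.02, limma adjusted p = 0.485), and KO_secGAA from KO_PBS by 0.69 (SE 0.31, adjusted p = 0.26). All 3 treated mice were above all WT_PBS mice, with a log2 fold change of 1.01 (95% CI 0.33 to 1.70) that did not pass (adjusted p = 0.0973). That difference passed with DESeq2 on the recovered reads (adjusted p = 0.00878) and without scaling factors (adjusted p = 0.0442). Leaving the factors out shifted the median of all genes by 0.151 in this comparison. It shifted by 0.295 in KO_PBS against WT_PBS and by -0.144 in KO_secGAA against KO_PBS, so a pass without scaling factors, here or below, includes that shift.

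Myf6 (chromosome 10, 107492853 to 107494737), the factor most abundant in adult fibres, was at 125.3, 82.52 and 87.53 in mice 1 to 3 of WT_PBS, at 144.1, 146.5 and 118.1 in those of KO_PBS and at 137, 143.8 and 181.3 in those of KO_secGAA. WT_PBS mouse 1 lay above KO_PBS mouse 3, while all treated mice were above all wild-type mice. The means were 98.47 ± 23.4, 136.2 ± 15.8 and 154.1 ± 23.9. Neither difference from WT_PBS passed, at 0.48 (95% CI 0.11 to 0.86, limma adjusted p = 0.0679) for KO_PBS and 0.66 (0.28 to 1.04, adjusted p = 0.0638) for KO_secGAA. Without WT_PBS mouse 1 both did (adjusted p = 0.0107 and 0.0204), as both did without scaling factors (adjusted p = 0.00437 and 0.0207), and the second with DESeq2 (adjusted p = 0.0115). Per kb of exon, mean levels in WT_PBS ran from Myf6 at 78 normalized counts to Myod1 at 11.6 and Myog at 2.61, an order kept in KO_PBS (108, 14.9 and 7.32) and in KO_secGAA (122, 24.4 and 4.69). The neighbours in that order did not overlap in any group.

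Mdfi (chromosome 17, 47815328 to 47834691) encodes a protein that holds the myogenic factors in the cytoplasm and masks their DNA binding. It was at 0.5827, 0.3162 and 0.2591 in the WT_PBS mice, from 8, 4 and 3 reads, and at 6.491, 5.162 and 6.206 in KO_PBS, from 99, 65 and 67 reads. In KO_secGAA it was at 1.521, 0.5682 and 0.6125, from 16, 6 and 8 reads. KO_PBS stood apart from both other groups, which overlapped each other. The ratio of the group means of KO_PBS, 5.953 ± 0.7, and WT_PBS, 0.386 ± 0.173, was 15.4. On the shrunken log2(value + 0.5) scale the change was 2.88 (SE 0.29, limma adjusted p = 0.000176), and edgeR on the recovered reads gave 4.03. Mdfi fell by 2.26 in KO_secGAA against KO_PBS (SE 0.29, adjusted p = 0.00467), to a mean of 0.9004 ± 0.538. The remaining difference from WT_PBS, 0.61 (95% CI -0.03 to 1.25), did not pass (adjusted p = 0.252).

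Mef2c (chromosome 13, 83504034 to 83667080), a MADS-box partner of the myogenic factors, was at 347.7, 402.7 and 403.2 in mice 1 to 3 of WT_PBS, at 352.6, 391.1 and 382.6 in those of KO_PBS and at 414.6, 327.8 and 380.6 in those of KO_secGAA. All 3 groups overlapped, with means of 384.5 ± 31.9, 375.4 ± 20.3 and 374.3 ± 43.7. The log2 difference between KO_PBS and WT_PBS was -0.03, with a 95% interval of -0.27 to 0.20 (limma adjusted p = 0.855), and turned to 0.28 without scaling factors (adjusted p = 0.0673). The median of all genes shifted by 0.295 under that change of scale. KO_secGAA differed from WT_PBS by -0.04 (95% CI -0.28 to 0.19), which turned to 0.12 in the same way, and from KO_PBS by -0.01 (-0.25 to 0.23).

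Runx1 (chromosome 16, 92601466 to 92826149), a Runt domain factor of blood cells and of denervated fibres, rose in both knockout groups. It was at 2.639, 2.354 and 2.776 in mice 1 to 3 of WT_PBS, at 11.91, 15.64 and 12.55 in those of KO_PBS and at 9.538, 8.785 and 9.693 in those of KO_secGAA. No groups overlapped, and the treated mice lay between the others. The means were 2.59 ± 0.215, 13.37 ± 2 and 9.339 ± 0.485. Its log2 fold change was 2.16 in KO_PBS (SE 0.14, limma adjusted p = 2.4e-05) and 1.67 in KO_secGAA (SE 0.14, adjusted p = 0.000499), both against WT_PBS. The treated group differed from KO_PBS by -0.49 (95% CI -0.80 to -0.18, adjusted p = 0.0948), which passed without scaling factors (adjusted p = 0.0311). An antisense gene, Gm26626, shares 106 bases with its exons (0.881%), and the sources used here do not say whether reads were counted by strand.

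Markers of macrophages and other blood-derived cells moved with Runx1 in part. Their 18 genes summed to 121.7 to 196.9 in WT_PBS, 359.1 to 488.6 in KO_PBS and 171 to 348.5 in KO_secGAA, and none was at 0 in any group. In KO_PBS, where 10.9% of all genes rose, 4 of the 18 did: Cd68, Lyz2, Mpeg1 and Lgals3. The other 14 did not pass. Among these, WT_PBS and KO_PBS means were 20.09 and 38.39 for C1qa, 17.65 and 23.12 for Csf1r and 8.303 and 11.42 for Mrc1. Cd163 was lower in KO_PBS, at 9.892 and 7.769. The blood cell marker Ptprc was at 2.149 ± 1.41, 5.058 ± 1.43 and 7.638 ± 4.67. The treated mean of Runx1 was 3.61 times that of WT_PBS, and the same ratio was 3.55 for Ptprc, 2.82 for Mpeg1, 2.06 for Cd68, 1.94 for Lgals3 and 1.79 for Lyz2. Ptprc was at 12.76, 6.513 and 3.639 in the treated mice and did not pass. Cx3cr1, at low levels, was at 0.2298 ± 0.218 in WT_PBS and 0.8776 ± 0.831 in KO_secGAA. Some others of the 18 differed less between those groups, with Adgre1 at 3.618 and 5.925, C1qa at 20.09 and 28.04 and Csf1r at 17.65 and 18.07. Cd163 alone had a lower treated mean, at 9.892 and 7.847. Of the 18 markers, 2 rose in KO_secGAA against WT_PBS, Mpeg1 (limma adjusted p = 0.0373) and Cd68 (adjusted p = 0.0469). Of all genes, 1.83% rose there. The call of Mpeg1 ended without WT_PBS 1 or 3, KO_PBS 3 or KO_secGAA 1 or 2 (adjusted p up to 0.133). That of Cd68 ended without any 1 mouse other than WT_PBS 1 (adjusted p up to 0.162). Both also ended with only those groups fitted, and that of Cd68 with edgeR. In KO_secGAA against KO_PBS, Cd68 and Lgals3 fell and none of the 18 rose, where 2.31% of all genes fell and 1.37% rose. Lgals3 went from 79.92 ± 13.1 to 14.31 ± 5.42, a call kept under every alternative tried. That of Cd68 ended without any 1 knockout mouse or WT_PBS 3 (limma adjusted p up to 0.141). Runx1 did not pass in that comparison. The part of blood-derived cells in the level of Runx1 was not tested. Of the 9 RUNX family and partner genes tested, 2 rose and 1 fell in KO_PBS, where 10.9% of all genes rose and 11% fell. Runx2, the family member of bone, rose from 0.5743 ± 0.315 to 2.364 ± 0.625, and Tle3, a Groucho-type corepressor, from 5.64 ± 1.88 to 12.97 ± 2.31. Cbfb, the partner subunit that the family shares, fell by 0.57 on the log2 scale (limma adjusted p = 0.0336). That call ended without WT_PBS 2 or 3, KO_PBS 1 or 2, or scaling factors, or with only those groups fitted (adjusted p up to 0.275). Among other corepressors, Tle1 was at 22.65 ± 3.04 and 20.33 ± 5.58 and Tle4 at 18.01 ± 2.33 and 14.33 ± 1.63 in WT_PBS and KO_PBS, and neither passed. None of the 9 passed in the other comparisons.

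Among the satellite cell genes, Pax7 (chromosome 4, 139737062 to 139833528) was at 0.994, 1.089 and 1.073 in mice 1 to 3 of WT_PBS, at 1.011, 2.719 and 2.804 in those of KO_PBS and at 1.889, 1.18 and 1.045 in those of KO_secGAA. These came from 13 to 34 reads a library. KO_PBS mouse 1 lay among the wild-type mice, and the other two KO_PBS mice above all others. The means were 1.052 ± 0.0509, 2.178 ± 1.01 and 1.371 ± 0.453. Pax7 did not pass in any comparison, with 0.70 in KO_PBS against WT_PBS (95% CI -0.02 to 1.42, limma adjusted p = 0.152), though it passed without KO_PBS mouse 1 (adjusted p = 0.0228). KO_secGAA differed from KO_PBS by -0.46 (-1.18 to 0.26) and from WT_PBS by 0.24 (-0.48 to 0.97).

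Cdh15 (chromosome 8, 122847966 to 122867397) encodes M-cadherin, which joins satellite cells to their fibre. It was at 20.6, 19.22 and 20.17 in mice 1 to 3 of WT_PBS, at 26.06, 26.67 and 24.59 in those of KO_PBS and at 16.54, 14.9 and 19.78 in those of KO_secGAA. KO_PBS was above both other groups without overlap. The means were 20 ± 0.708, 25.78 ± 1.07 and 17.08 ± 2.48, and the small changes in both directions passed narrowly. Cdh15 rose by 0.36 in KO_PBS (SE 0.11, limma adjusted p = 0.046), a call that ended with DESeq2 (adjusted p = 0.0624) and without any 1 WT_PBS mouse, any 1 KO_PBS mouse or KO_secGAA mouse 1 (adjusted p up to 0.129). It fell by 0.59 in KO_secGAA against KO_PBS (adjusted p = 0.0237), which ended without any 1 KO_PBS mouse, KO_secGAA mouse 1 or 2, or with a fit of those groups only (adjusted p up to 0.0858). Against WT_PBS the treated group differed by -0.23 (95% CI -0.48 to 0.02, adjusted p = 0.267). A same-strand gene, Gm20388, spans the locus and shares no exon bases with it.

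Mymk (chromosome 2, 27061636 to 27072179) encodes myomaker, a membrane protein needed for myoblasts to fuse. It was at 0.2399, 0.1757 and 0.5552 in mice 1 to 3 of WT_PBS, at 4.012, 2.088 and 2.436 in those of KO_PBS and at 1.244, 0.743 and 0.6846 in those of KO_secGAA. The WT_PBS values rest on 3, 2 and 7 reads, those of KO_PBS on 61, 26 and 26, and those of KO_secGAA on 13, 8 and 9. No groups overlapped, and the treated mice lay between the others. The ratio of the KO_PBS mean, 2.846 ± 1.03, to that of WT_PBS, 0.3236 ± 0.203, was 8.79, with a log2 fold change of 2.01 on the log2(value + 0.5) scale (SE 0.30, limma adjusted p = 0.0017) and 3.26 with edgeR. The treated mean was 0.8906 ± 0.308. It differed from KO_PBS by -1.25 (95% CI -1.93 to -0.57), just short of passing (adjusted p = 0.0547), and passed at a pseudocount of 1 (adjusted p = 0.0452), with DESeq2 (adjusted p = 0.0288) and without scaling factors (adjusted p = 0.025). From WT_PBS it differed by 0.76 (0.08 to 1.44, adjusted p = 0.185).

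**Figure D2:**
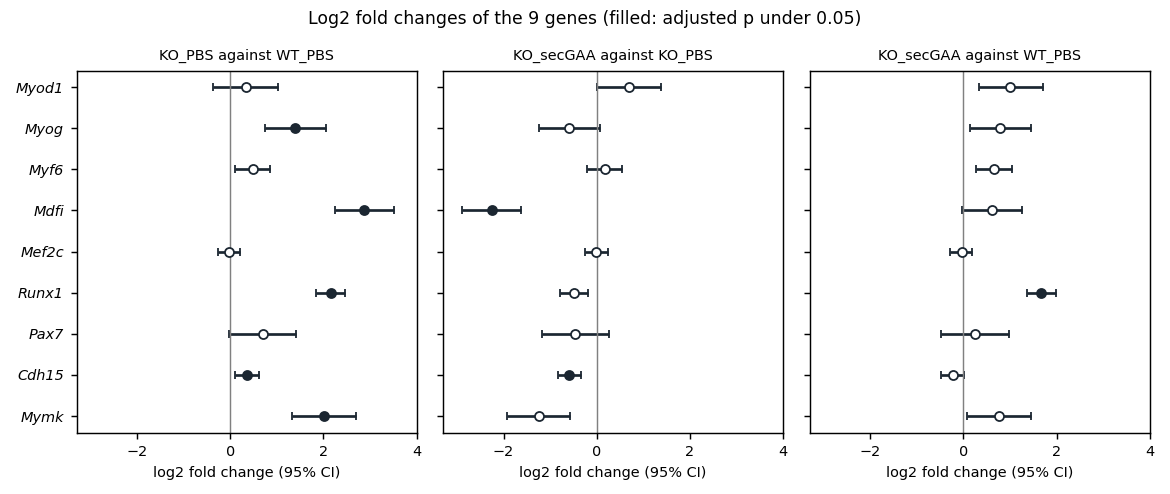
Log2 fold changes (x axis) of the 9 genes (rows) in the 3 comparisons (panels), on the log2(value + 0.5) scale, with 95% confidence intervals of limma. Filled points passed at an adjusted p under 0.05: Myog, Mdfi, Runx1, Cdh15 and Mymk on the left, Mdfi and Cdh15 in the middle, Runx1 on the right.

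A set of 7 lists of other genes around the members was set beside them in KO_PBS against WT_PBS. The lists were chosen with earlier results of these data known, so their counts describe the data and are not independent evidence. The list that stood highest held genes listed as activated by myogenic factors in developing, denervated or regenerating fibres, an activation not tested here. Of its genes, 17 of 27 tested rose and none fell, where 10.9% of all genes rose and 11% fell. The median log2 fold change was 1.40 against 0.01 for all genes. The neural adhesion molecule Ncam1 was at 4.147, 3.829 and 3.294 in the WT_PBS mice and at 32.72, 23.52 and 47.76 in the KO_PBS mice, a log2 fold change of 2.99 (limma adjusted p = 3.9e-05). Nes, an intermediate filament of immature fibres, rose from 35.42 ± 5.53 to 147.5 ± 12.5 and the potassium channel gene Kcnn3, known from denervated muscle, from 0.9619 ± 0.338 to 14.52 ± 0.78. Gadd45a, a stress gene of denervated fibres, rose from 31.24 ± 6.71 to 141.5 ± 2.69. Acetylcholine receptor subunits are described here outside the rule for named genes, after their values were seen. The fetal subunit gene Chrng was at 0.2507 ± 0.128 and 3.407 ± 2.22, and Chrnd at 1.583 ± 0.521 and 23.42 ± 6.86. Chrng, like Mdfi and Mymk, passed the filter mainly through KO_PBS, so the counts and medians of this list are not independent of it. The adult subunit gene Chrne was at 14.73 ± 3.05 and 12.7 ± 3.63 and did not pass. Nor did the ubiquitin ligase genes of atrophy, Trim63 at 612.3 ± 502 and 550.9 ± 308 and Fbxo32 at 464.6 ± 224 and 497.9 ± 149, whose mice differed widely and whose differences changed sign with the library left out.

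In KO_secGAA against KO_PBS, 7 of those 27 genes fell, none rose, and the median was -0.77. Among all genes, 2.31% fell and 1.37% rose there. Ncam1 fell to 8.535 ± 0.768 (limma adjusted p = 0.00313), Nes to 56.2 ± 9.93 (adjusted p = 0.00229) and Chrnd to 4.057 ± 1.76 (adjusted p = 0.00497). Kcnn3 fell to 5.198 ± 2.27 (adjusted p = 0.0204), which ended without any 1 KO_PBS mouse or KO_secGAA mouse 2 or 3 (adjusted p up to 0.0806). Where 1.83% of all genes rose against WT_PBS, 5 of the 27 still rose in the treated mice, with a median of 0.83. Gadd45a, at 96.02 ± 25.5, was among them (log2 fold change 1.59, adjusted p = 0.00387). That last count was 2 without KO_secGAA mouse 2 and 10 with DESeq2. Over all alternatives tried, 14 to 17 of the list rose in KO_PBS against WT_PBS and 5 to 10 fell in KO_secGAA against KO_PBS.

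**Figure D3:**
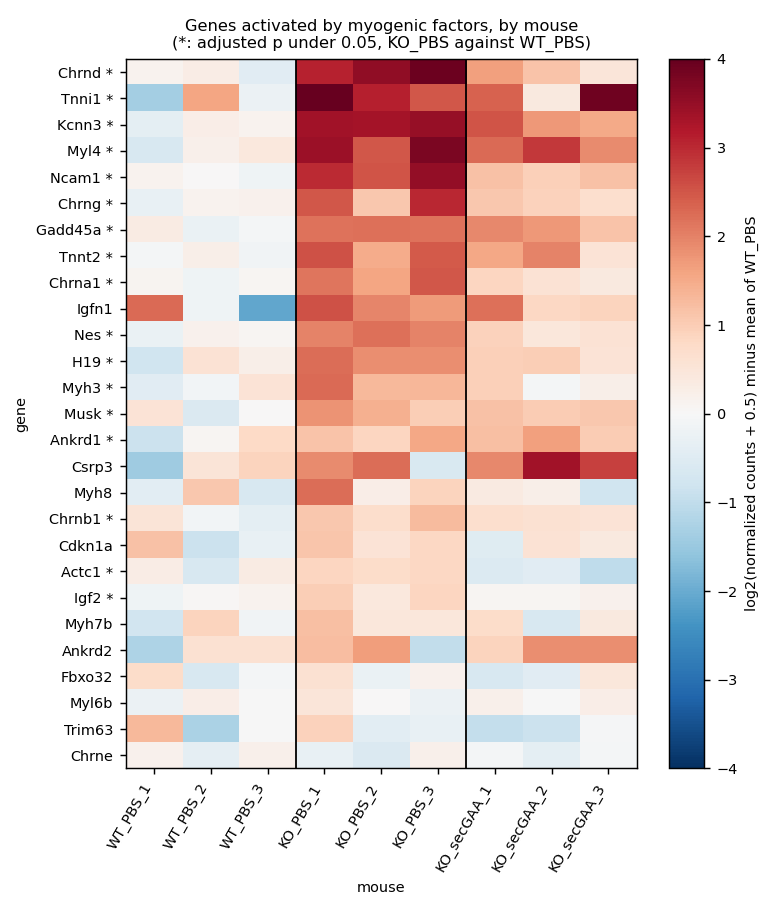
The 27 tested genes listed as activated by myogenic factors (rows, ordered by their log2 fold change in KO_PBS against WT_PBS) in the 9 mice (columns), as log2(normalized counts + 0.5) minus the mean of WT_PBS, with a scale from -4 to 4. Activation itself was not tested. Red is above the WT_PBS mean, and asterisks mark the 17 that rose, which were red in all 3 KO_PBS mice and paler for most genes in KO_secGAA.

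Of 23 other satellite cell and progenitor markers tested, 6 rose in KO_PBS and none fell, with a median of 0.38. Over all genes the shares were 10.9% risen and 11% fallen. The rises numbered 5 without WT_PBS mouse 3 and 12 without scaling factors. Ncam1 and Musk, counted among the 6, are also in the previous list. Cd82, a tetraspanin of satellite cells, rose from 13.02 ± 4.07 to 41.98 ± 4.8, and Itgb1, the integrin beta 1 gene that many other cells express, from 169.4 ± 15.9 to 253.5 ± 7.84. Peg3, an imprinted gene of progenitor cells, rose from 9.886 ± 1.53 to 37.77 ± 8.95 and was at 39.27 ± 13.2 in KO_secGAA, where it had risen against WT_PBS too (limma adjusted p = 0.00428). Fgfr1, a growth factor receptor, was at 71.49 ± 8.15 and 79.7 ± 4.48 and the syndecan gene Sdc4 at 42.56 ± 16.7 and 50.29 ± 20.2, and neither passed. A narrower set of 9 satellite cell markers was also tested. Its sums were 148.3 to 193.3 in WT_PBS, 203 to 229.7 in KO_PBS and 161.9 to 204 in KO_secGAA. Most of these sums came from Sdc4 and from Itga7, at 84.7 ± 6.12 in WT_PBS and 113.8 ± 8.79 in KO_PBS, so they do not follow satellite cells alone. Of the 9 markers, 2 rose in KO_PBS, Cdh15 and Itga7, the latter not without WT_PBS mouse 3. The other 7 did not pass, Pax7, Myf5 and Sdc4 among them. Calcr, Megf10 and Chrdl2 were not analysed here.

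Inhibitors other than Mdfi gave 2 rises and no falls among 21 tested, with a median of 0.06. Among all genes, 10.9% rose and 11% fell, so the rises were near that share. Without scaling factors 8 rose, with DESeq2 1 fell, and 1 rose without WT_PBS mouse 1 or 2 or KO_PBS mouse 2 or 3. Mdfic, the relative of Mdfi, rose from 10.82 ± 0.559 to 29.43 ± 6.56 (limma adjusted p = 0.00161) and was at 22.73 ± 5.74 in KO_secGAA, where it was not separated from KO_PBS (adjusted p = 0.372). Id4, which ties up E proteins, rose from 0.7486 ± 0.172 to 2.558 ± 1.15, a call that ended without WT_PBS 1 or 2 or KO_PBS 2 or 3 (adjusted p up to 0.0902). The repressor gene Bhlhe40 was at 61.75 ± 22.3 and 108.7 ± 30.1 and did not pass. Hdac5, a deacetylase that represses MEF2 factors, was at 79.79 ± 1.59 in WT_PBS, 68.99 ± 2.69 in KO_PBS and 95.91 ± 2.3 in KO_secGAA. It rose in KO_secGAA against KO_PBS by 0.47 (adjusted p = 0.00778).

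Of 32 DNA-binding partners and co-factors tested, 3 rose and 5 fell, with a median of -0.03, which is near the shares of all genes (10.9% and 11%). Without scaling factors 11 rose and 2 fell, and 2 rose without KO_PBS mouse 2 or with only those groups fitted. Smarcd3, the chromatin remodeling subunit that acts with Myod1, fell by 1.10 on the log2 scale, from 243.3 ± 8.45 to 113.6 ± 12.2 (limma adjusted p = 8.5e-05). The methyltransferase genes Smyd1 and Setd7 fell by 0.76 and 0.66, from 432.9 ± 29.9 to 255.7 ± 7.21 and from 199.3 ± 15.6 to 126.8 ± 16. Setd7 did not pass without scaling factors (adjusted p = 0.0565). Klf5, a zinc finger factor of muscle differentiation, rose from 3.711 ± 0.535 to 27.48 ± 12.1 (adjusted p = 0.000135) and was at 13.61 ± 1.34 in KO_secGAA. Mef2d, at 140.6 ± 14.4 and 160.8 ± 9.27, and Tead1, at 146.4 ± 9.02 and 127.7 ± 4.96, did not pass. The fibre markers moved beside these falls: 6 of 12 fell and 1 rose in KO_PBS, and their part in the falls was not tested.

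Of 28 fusion and adhesion genes other than Mymk, 4 rose and 3 fell, with a median of 0.00, again near the shares of all genes. Without scaling factors 12 rose and 1 fell, and 2 rose without WT_PBS mouse 3 or KO_PBS mouse 2 or 3. The tetraspanin gene Cd81, which many cell types express, rose from 79.61 ± 5.79 to 179.6 ± 23.8 (limma adjusted p = 9.9e-05) and fell to 110.8 ± 7.2 in KO_secGAA (adjusted p = 0.0092). Cdh4, the R-cadherin gene, fell by 2.19 on the log2 scale, from 10.86 ± 3.49 to 1.985 ± 0.674, and was at 2.307 ± 1.28 in KO_secGAA. Fermt2, an integrin activator, and Arhgap10 fell by 0.51 and 0.52, but not without scaling factors (adjusted p = 0.0701 and 0.0787). The fatty acid transporter Cd36, at 270.3 ± 35.7 and 296 ± 61.3, and the membrane protein gene Tmem182, at 230.6 ± 1.12 and 231 ± 8, did not pass.

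Of 28 cell division genes only 14 were tested, and the other 14, Top2a and Ccnb1 among them, were not analysed here. In KO_PBS 2 rose and 2 fell, with a median of 0.17, and 1 to 3 did so in either direction over the alternatives tried. Both counts were near the shares of all genes, 10.9% risen and 11% fallen. Rrm2, a subunit of ribonucleotide reductase, rose from 0.8604 ± 0.198 to 3.84 ± 0.13, and the replication clamp gene Pcna from 28.26 ± 1.21 to 40.18 ± 5.78, the latter not without WT_PBS 1, 2 or 3 or KO_PBS 1 or 2 (limma adjusted p up to 0.111). Ube2c, of mitotic protein breakdown, fell by 0.86 and the cyclin gene Ccne2 by 0.79, the latter not without WT_PBS 3, KO_PBS 2 or scaling factors (adjusted p up to 0.0661). The replication helicase genes Mcm7, at 8.173 ± 0.957 and 9.35 ± 2.13, and Mcm2, at 8.917 ± 1.89 and 5.585 ± 0.836, did not pass.

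**Figure D4:**
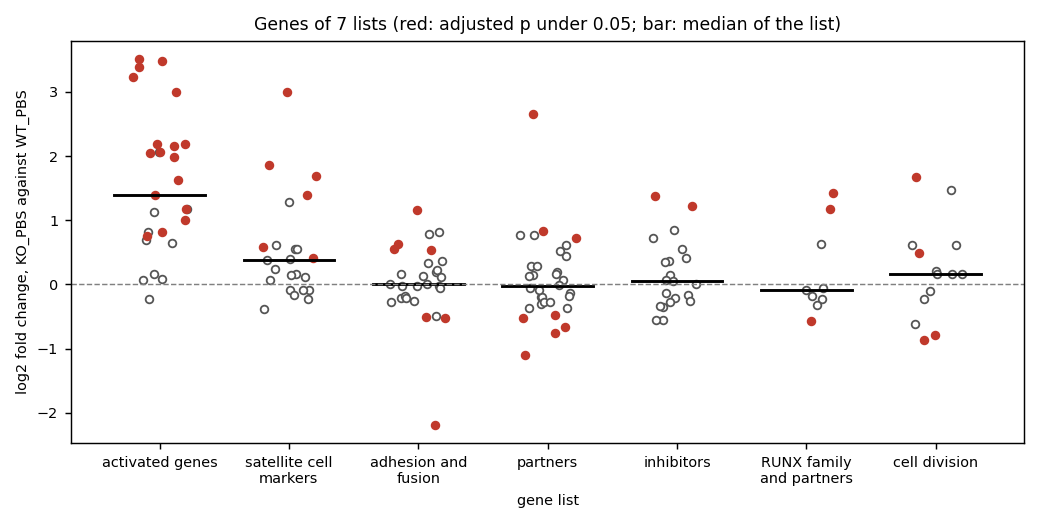
Log2 fold changes in KO_PBS against WT_PBS (y axis, log2(value + 0.5) scale) of the tested genes of 7 lists (x axis). Each point is a gene, red where it passed at an adjusted p under 0.05, and the bar is the median of the list, which was 1.40 for the activated genes and -0.08 to 0.38 for the other 6.

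Genes with the most similar profile were found for each member as those with the smallest root mean square difference of centred log2 values over the 9 libraries, among named genes with a mean of 5 or more. For Mdfi these were Lgals3, a galectin gene and macrophage marker, at a difference of 0.328, and Fam129b at 0.346. Lgals3 was at 7.365 ± 1.02, 79.92 ± 13.1 and 14.31 ± 5.42 in WT_PBS, KO_PBS and KO_secGAA. For Runx1 they were Eef1a1, a translation factor gene with processed pseudogenes, at 0.228, and Gadd45a at 0.262. For Mymk they were the embryonic myosin gene Myh3 at 0.268 and the acetylcholine receptor gene Chrna1 at 0.286. Cdh15 was nearest to Tmem192 (0.088) and Syt11 (0.090), and Pax7 to Cygb (0.138) and Antxr2 (0.152). For Myog the nearest were Rn7s1 and Rn7s2, both at 0.239, copies whose values were identical and whose reads cannot be assigned to either. Gpat3 (0.257) and Hspb1 (0.265) were nearest to Myod1, Peg13 (0.153) and Gclc (0.156) to Myf6, and Bcl2l13 and Taok1 (both 0.056) to Mef2c. The measure depends on how much a gene varies, so small differences mark flat profiles as well as shared ones.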

How the data were processed

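RNA of 9 quadriceps samples was measured. The build GRCm38 and the tools RSEM, CASAVA, edgeR, cutadapt and limma are named in the submitters' processing notes, without their versions or roles. Per the file headers the deposited table holds normalized counts, a signal scaled by the authors. Each value was an odd multiple of its column's smallest (relative tolerance 1e-06, 100% of values), so whole reads were recovered as reads + 0.5 over library size and TMM factor. limma 3.58.1 (R 4.3.3) was fitted on log2(value + 0.5) with group means and a trend, with 6 residual degrees of freedom, over genes reaching 1 in 3 or more libraries (27 of 13116 removed). The design had named edgeR for raw counts and limma otherwise. edgeR 4.0.16 and DESeq2 1.42.0 were run on the recovered reads as alternatives, with other pseudocounts, no filter, no scaling factors, only the 2 groups compared, and each mouse left out. The test was tried on simulated data first. Members and lists were chosen with earlier results of these data known. All 9 members were named. From each list, up to 4 genes that passed in KO_PBS against WT_PBS (smallest p) and up to 2 that did not (highest level) were named; others are examples chosen after their values were seen. Positions and exon lengths come from GENCODE M21, promoters from RefSeq.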

Additional observations from a re-analysis of the deposited data

How the results depend on the processing

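Over 16 alternatives, the rises of Runx1, Mdfi, Mymk and Myog in KO_PBS against WT_PBS, the fall of Mdfi in KO_secGAA against KO_PBS and the rise of Runx1 in KO_secGAA against WT_PBS kept their direction and their side of the threshold; the calls of Cdh15 did not. Of the members' values, 395 kept both, 12 passed newly, 14 no longer passed and 9 changed sign. For the other named genes these were 787, 10, 83 and 16. Genes called in KO_PBS against WT_PBS numbered 2867 (49.9% up), 2841 with edgeR, 4985 without scaling factors (89.6% up) and 1730 to 2848 with a mouse left out. In KO_secGAA against KO_PBS they were 481 (37.2% up), 445 with edgeR, 958 without scaling factors (10.6% up), 798 with DESeq2, 319 with only the 2 groups and 161 to 571 with a mouse left out. In KO_secGAA against WT_PBS they were 487 (49.1% up), 503 with edgeR, 1009 without scaling factors (86.2% up), 1022 with DESeq2 and 89 to 504 with a mouse left out. Members called in KO_secGAA against KO_PBS were 4 without scaling factors, 1 with only the 2 groups and 1 to 2 with a mouse left out. In KO_secGAA against WT_PBS they were 3 without scaling factors, 3 with DESeq2 and 1 to 2 with a mouse left out. Scaling factors ran from 0.872809 to 0.914159 in WT_PBS, 1.0678 to 1.16968 in KO_PBS and 0.96321 to 1.03387 in KO_secGAA. Without them the median of all genes shifted by 0.295 in KO_PBS against WT_PBS and by -0.144 in KO_secGAA against KO_PBS. In KO_secGAA against WT_PBS it shifted by 0.151. What set the factors apart by group, and the cause of the other changes in these counts, was not tested. Signs changed only for differences that had not passed. Without scaling factors these were Mef2c in KO_PBS (0.28) and KO_secGAA (0.12) against WT_PBS, and Tead1 (0.12), Hdac5 (0.11) and Tle1 (0.13) in KO_PBS against WT_PBS. With edgeR and DESeq2 Trim63 was at -0.15 and -0.16, and Tmem182 with DESeq2 at -0.008. With a mouse left out Mef2c ranged from -0.10 to 0.01, -0.09 to 0.08 and -0.12 to 0.05 in the 3 comparisons. In KO_PBS against WT_PBS Sdc4 ranged from -0.07 to 0.53, Cd36 from -0.01 to 0.29, Tmem182 from -0.02 to 0.03, Trim63 from -0.56 to 0.72, Fbxo32 from -0.16 to 0.53 and Tle1 from -0.34 to 0.06. Mdfi and Mymk could not be fitted in KO_secGAA against WT_PBS with only those groups, where they fall under the filter. No paired analysis was possible because the labels give no replicate numbers that mice of different groups share. Precision at low levels is limited by reads: Mdfi and Mymk had 2 to 8 reads in the WT_PBS libraries.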

Other observations

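Values of Myog and Myod1 were also set against each other within each library, a choice made after the values were seen. The log2 ratio of Myog to Myod1 in normalized counts was -3.24, -2.22 and -2.07 in mice 1 to 3 of WT_PBS, -1.03, -2.33 and -0.64 in those of KO_PBS and -2.38, -2.64 and -2.98 in those of KO_secGAA. Its means were -2.51 ± 0.64, -1.33 ± 0.88 and -2.67 ± 0.30 (SD, n = 3). A pair of KO_PBS mice had the highest ratios, and KO_PBS mouse 2 lay among the other groups.

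Markers of other cell types in the same muscle moved as follows in KO_PBS against WT_PBS, where 10.9% of all genes rose and 11% fell. Of 12 endothelial markers 6 fell in KO_PBS against WT_PBS, Pecam1, Tie1, Esam, Vwf, Flt1 and Ptprb, with sums of 256.9 to 313.2 in WT_PBS, 182.7 to 236.1 in KO_PBS and 254.5 to 289.3 in KO_secGAA. Of 12 fibroblast markers 1 rose, the matrix gene Lum, with overlapping sums of 1257 to 1910, 1405 to 2015 and 1365 to 1848. Among 10 smooth muscle and pericyte markers 1 fell, Rgs5, and of 9 Schwann cell markers tested none passed. Of 8 fat cell markers 1 fell, the lipase gene Lipe, and the sums spread over 359.9 to 1535 in WT_PBS, 237.9 to 473.8 in KO_PBS and 364.1 to 1012 in KO_secGAA. Only Cd3e of the 12 markers of T, B and NK cells was tested, and it fell. The part of any of these in the members' levels was not tested.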
